A study of Mus musculus with 4 samples.

Results

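The genes that encode the chains of non-muscle myosin II were described in single cells of the embryonic mouse brain. The members were the rows of 5 gene symbols, Myl6, Myl12a, Myl12b, Myh9 and Myh10, chosen by name. They were 5 of 27998 genes in the short-read table and 5 of 12561 genes in the long-read table, where they held 20 of 31986 isoforms. All 5 members were measured on both platforms. The source was E18 brain tissue of C57BL/6 mouse, in which cortex, hippocampus and the sub ventricular zone were pooled, and no genetic change or treatment is named. A single 10x Chromium emulsion (v2 chemistry, which captures polyadenylated RNA in droplets and tags each cell and each molecule) was split into aliquots that gave 190 and 951 cells. The cDNA of each aliquot was read with Illumina and with Nanopore sequencing, which gave 4 libraries from 1 emulsion. The aliquots are technical replicates, so every p-value below measures the spread between aliquots and says nothing of the spread between animals.

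Non-muscle myosin II is the motor that pulls on actin filaments in cells other than striated muscle. Each motor is built from a pair of heavy chains, which bind actin and split ATP, and each heavy chain carries an essential light chain that stiffens the lever arm and a regulatory light chain whose phosphorylation switches the motor on. Myl6 encodes the essential light chain, Myl12a and Myl12b encode near-identical regulatory light chains, and Myh9 and Myh10 encode the heavy chains of non-muscle myosin IIA and IIB. In the developing brain the motor is known for its part in the cell shape and division of progenitors, in the movement of young neurons and in growth cones.

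The isoform result below turns on 1 exon of Myl6, and the sequence of this exon is therefore given first. The paper had already reported, from these same libraries, a switch between the same 2 Myl6 isoforms as neurons mature. Myl6 lies on the minus strand of chromosome 10 (GRCm38, chr10:128490860-128494145). The exon-included isoform (ENSMUST00000218127) has 7 exons and includes a cassette exon of 45 bases at chr10:128491720-128491764, and the exon-skipping isoform (ENSMUST00000164181) has 6 exons and skips it. The exon carries a stop codon, so the 2 isoforms end in different codons. Where it is included, the last 26 coding bases and the stop codon come from the exon itself. Where it is skipped, the last 26 coding bases and the stop codon come from the final exon, at chr10:128491005-128491033. Both coding sequences are 456 bases long with the stop codon. Capitals mark the coding bases and the stop codon, and lower case marks bases of the exon beyond it (minus strand, Gencode vM21 transcripts).
Myl6 exon-included isoform, exon 6: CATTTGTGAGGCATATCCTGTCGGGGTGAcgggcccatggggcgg
Myl6 exon-skipping isoform, start of the final exon: AGCTTGTCCGGATGGTGCTGAATGGCTGA

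The regulatory light chain genes are neighbours on the minus strand of chromosome 17 (Myl12b at chr17:70973133-70990890 and Myl12a at chr17:70993656-71002878, GRCm38). Their coding sequences were of equal length, 519 bases with the stop codon, and 18 of these bases differed (96.5% identity). The first 60 coding bases are shown because a reader can see in them how little separates the genes, with the 4 differing bases in capitals. Reads inside the coding sequence could therefore be assigned to the wrong gene. How far the split between Myl12a and Myl12b depends on the authors' assignment of such reads was not tested. Gencode vM21, a later release than the paper's methods name, also holds a second Myl12b gene across both loci. The short-read table held 5 rows for the 5 member symbols, so it had no row of its own for that gene.
Myl12a: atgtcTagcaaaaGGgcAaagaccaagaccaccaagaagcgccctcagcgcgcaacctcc
Myl12b: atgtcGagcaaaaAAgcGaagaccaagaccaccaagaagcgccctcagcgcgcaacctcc

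Cells with at least 1400 genes detected by Illumina sequencing were kept, 186 of 190 and 935 of 951, together 1121 cells. Their unique molecular identifiers (UMIs, 1 per captured molecule) summed to 1809081 and 8295650 in the Illumina tables and to 993220 and 4889148 in the Nanopore isoform tables. Cells were grouped by shared expression into 8 classes that were named from markers, with the genes of the myosin lists left out of the grouping. The classes held 68 radial glia-like, 119 cycling radial glia-like, 85 intermediate progenitor-like, 231 immature and 280 mature glutamatergic-like, 172 immature and 145 mature GABAergic-like and 16 Cajal-Retzius-like cells. Fabp7 and Aldoc were among the leading genes of the radial glia-like cells and Top2a among those of the cycling ones. Ebf1 and Isl1 were among those of the immature GABAergic-like cells, and Sst and Maf among those of the mature GABAergic-like cells. However, 1 immature glutamatergic-like cluster of 86 cells had no marker of its own class among its 10 leading genes. The cycling class was named from cell-cycle genes alone, and intermediate progenitor markers came next in score (0.65 against 3.22). Which progenitors it holds was not settled, so its comparisons do not hold cell type fixed. In the radial glia-like class the cycling markers came next in score (1.64 against 3.81). A comparison of the 2 classes is therefore not one of dividing with non-dividing cells. Where other radial glia-like cells are named against cycling ones below, the radial glia-like class is meant. The immature and mature GABAergic-like classes shared none of their 10 leading genes, and it was not settled that they hold the same kind of neuron. Their comparisons therefore do not hold neuron type fixed. A further 5 cells of the 951 cell aliquot with microglial (3 cells) or mural (2 cells) markers were set aside. Kept cells of the 2 aliquots shared 12 barcodes, of which 10 fell in the same class, and no cell was most like the cell of its own barcode. Haemoglobin transcripts were present in every class, at 434 to 646 CPM summed over 3 genes (CPM here is Illumina UMIs of a gene per 1000000 UMIs of the class). Whether they came from free RNA, and whether free RNA adds to the levels below, was not tested.

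Myl6, the essential light chain, was the most counted of the 5 members, with 777 and 3491 Illumina UMIs in the 190 and 951 cell aliquots, or 430 and 421 CPM. UMIs count molecules captured at their 3′ ends, so levels were not divided by transcript length. Of the classes, radial glia-like cells had the highest level, 621 and 475 CPM in the 2 aliquots, and cycling radial glia-like cells the lowest, 320 and 304 CPM. Neurons lay between, at 468 and 429 CPM in mature glutamatergic-like and 467 and 464 CPM in mature GABAergic-like cells. The 5 cells set aside were higher than any class, at 1453 CPM (77 UMIs). From the second to the sixth place the order of classes was mature GABAergic-like, intermediate progenitor-like, mature glutamatergic-like, Cajal-Retzius-like and immature GABAergic-like cells, and from the third place down to the seventh each class overlapped its neighbour over aliquots. Myl6 was lower in the cycling than in the radial glia-like class by a log2 fold change of -0.80 ± 0.20 (SE, edgeR quasi-likelihood test, adjusted p = 0.00415). The groups did not overlap, but the call was lost without the radial glia-like sum of the 190 cell aliquot (-0.58, adjusted p = 0.0928) and without the cycling sum of the 951 cell aliquot (-0.74, adjusted p = 0.104). In this comparison 11.8% of 8458 genes passed the test (6.33% lower), or 1642 genes in place of 999 with the aliquot as a block.

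No difference in the level of Myl6 between mature neurons and radial glia-like cells passed the test. Immature neurons were not tested against radial glia-like cells. Over aliquots they lay at 369 to 398 CPM (glutamatergic-like) and 333 to 459 CPM (GABAergic-like), below the 475 to 621 CPM of radial glia-like cells. The log2 fold change against radial glia-like cells was -0.22 ± 0.19 (SE, adjusted p = 0.417) in mature glutamatergic-like and -0.34 ± 0.20 (SE, adjusted p = 0.204) in mature GABAergic-like cells. Between mature and immature neurons it was 0.31 ± 0.19 (adjusted p = 0.563) in the glutamatergic-like and 0.07 ± 0.20 (adjusted p = 0.994) in the GABAergic-like classes. The median log2 fold change of all 8458 genes tested lay between -0.08 and 0.01 in the 6 class comparisons.

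**Figure D1:**
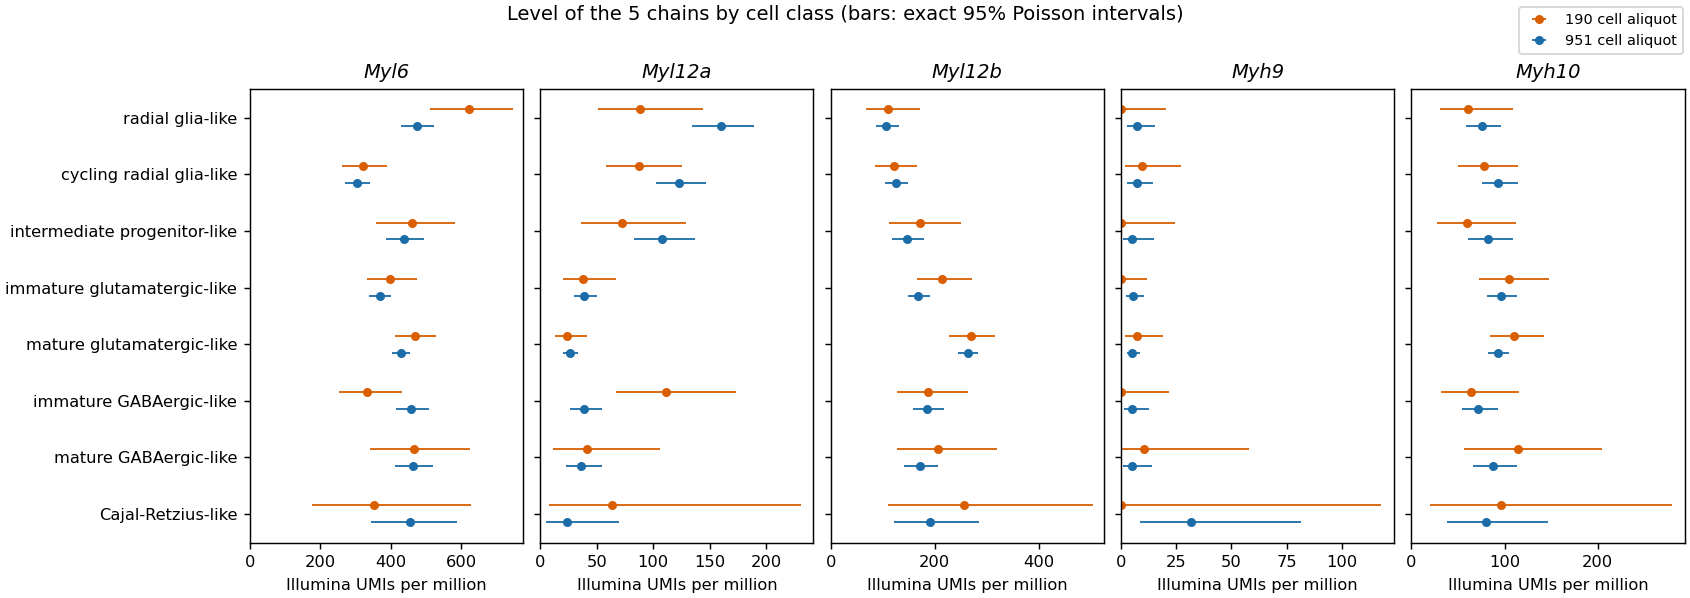
Illumina CPM (x axis, a scale of its own in each panel) of the 5 members in 8 cell classes (y axis), with 1 point per aliquot (orange 190 cells, blue 951 cells) and exact 95% Poisson intervals that cover counting error only. Myl12a was high in progenitor classes and Myl12b in mature glutamatergic-like cells, while Myl6 stayed between 304 and 621 CPM.

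Of the 3410 Nanopore UMIs of the gene, the exon-skipping isoform held 2313 (67.8%) and the exon-included isoform held 994 (29.1%), while an annotated retained intron held 43 (1.26%). The share of the exon-included isoform was 64.1% (59 of 92 UMIs, exact 95% binomial interval 53.5 to 73.9) and 58.2% (188 of 323, 52.6 to 63.6) in radial glia-like cells of the 190 and 951 cell aliquots. It was 15.4% (30 of 195, 10.6 to 21.2) and 13.6% (127 of 935, 11.5 to 16.0) in mature glutamatergic-like cells. In mature GABAergic-like cells it was 6.67% (2 of 30, 0.818 to 22.1) and 5.49% (13 of 237, 2.95 to 9.20). The aliquots of radial glia-like cells and of either mature class did not overlap. Intervals cover counting error only.

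The difference passed the test of isoform usage, which asks whether the isoforms of a gene changed in unequal measure (edgeR, 2 Myl6 isoforms tested). The adjusted p was 6.45e-10 for mature glutamatergic-like and 3.38e-10 for mature GABAergic-like against radial glia-like cells, and both calls held without any single sum. Relative to the gene as a whole, the exon-included isoform had log2 changes of -2.06 and -3.26 in the 2 comparisons. In them 16% and 12.8% of the 643 genes with at least a pair of measurable isoforms passed the test. Levels of the isoforms moved in opposite directions. The exon-skipping isoform was at 310 and 257 Nanopore CPM in radial glia-like cells, at 531 and 490 in mature glutamatergic-like and at 518 and 593 in mature GABAergic-like cells. The exon-included isoform, whose coding sequence ends within the exon printed above, was at 590 and 378 CPM in radial glia-like cells, at 100 and 79.7 in mature glutamatergic-like and at 38.3 and 35.7 in mature GABAergic-like cells. For neither isoform did the aliquots of radial glia-like cells overlap with those of the mature classes.

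Intermediate progenitor-like cells, which stand between radial glia and neurons, overlapped with radial glia-like cells over aliquots, with an exon-included share of 67.2% (39 of 58 UMIs, 53.7 to 79.0) and 52.5% (114 of 217, 45.7 to 59.3). Immature neurons lay between the progenitors and the mature neurons. Their share was 43.4% (43 of 99, 33.5 to 53.8) and 27.9% (130 of 466, 23.9 to 32.2) in immature glutamatergic-like cells. In immature GABAergic-like cells it was 42.1% (16 of 38, 26.3 to 59.2) and 25.2% (78 of 310, 20.4 to 30.4). In each aliquot the mature glutamatergic-like cells were lower than the immature glutamatergic-like cells, and the mature GABAergic-like cells lower than the immature GABAergic-like cells. Both immature classes overlapped over aliquots with the cycling radial glia-like cells described below.

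The usage of Myl6 isoforms differed between mature and immature cells in the glutamatergic-like (adjusted p = 0.00448) and the GABAergic-like classes (adjusted p = 0.00144). Of the 643 genes 2.02% and 0.933% passed. The GABAergic-like comparison does not hold neuron type fixed. With the aliquot as a block, 41 in place of 13 and 12 in place of 6 genes passed. The glutamatergic call was lost without the immature sum of the 190 cell aliquot (adjusted p = 0.135) or the mature sum of the 951 cell aliquot (adjusted p = 0.488), and stood at an adjusted p of 0.00128 without the immature cluster of 86 cells described above. The GABAergic call was lost without the mature sum of the 951 cell aliquot (adjusted p = 0.603). Without a filter on low counts neither passed (adjusted p = 0.700 and 0.493).

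Cycling radial glia-like cells had a lower share of the exon-included isoform than the radial glia-like class, with no overlap over aliquots. Their share was 50.6% (39 of 77, 39.0 to 62.2) and 34.1% (79 of 232, 28.0 to 40.5). The usage test gave an adjusted p of 0.0652 and of 1.91e-04 with the aliquot as a block, where 38 in place of 23 genes passed (3.58% of 643 without the block). Without the cells that Scrublet called doublets it was 0.0252, and with the 5 cells of other types put back it was 0.185. It was 0.0358 without the cycling sum of the 190 cell aliquot and at most 0.745 without any other sum. The share of mature GABAergic-like cells was below that of mature glutamatergic-like cells in each aliquot. That difference did not pass (adjusted p = 0.233, with 1.56% of genes passing), but did with the block (adjusted p = 0.0461, 19 in place of 10 genes).

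Cajal-Retzius-like cells, the Reln-expressing early neurons of the cortical surface, stood at the other end of the range from the mature neurons. Of their 42 Myl6 UMIs, 36 were the exon-included isoform (85.7%, exact interval 71.5 to 94.6), 4 of 5 in the 190 and 32 of 37 in the 951 cell aliquot. The UMIs came from 13 of the 16 cells, with at most 6 from 1 cell, and all 13 held the exon-included isoform while 6 held the exon-skipping isoform. With 3 cells in 1 aliquot the class entered no test. The 5 cells set aside showed the reverse, with 55 of 59 Myl6 UMIs from the exon-skipping isoform (93.2%) and 1 from the exon-included isoform.

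**Figure D2:**
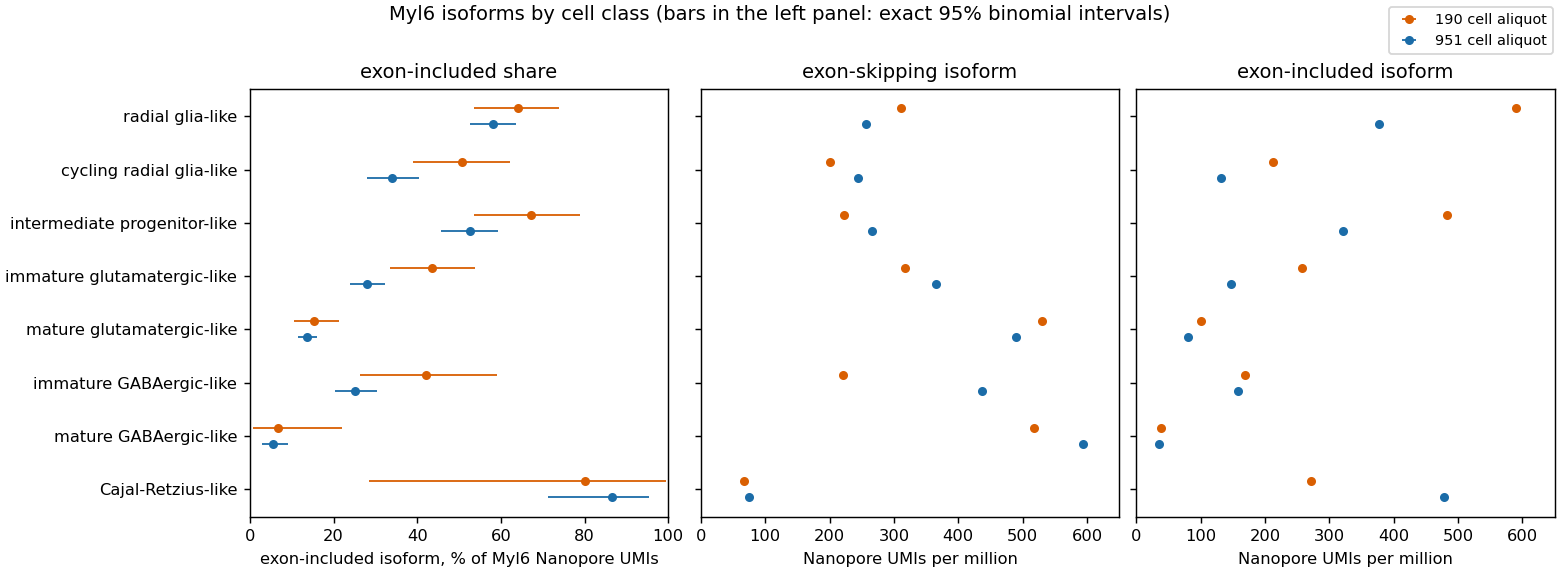
Left, the share of the exon-included isoform among Myl6 Nanopore UMIs (x axis, percent) in 8 cell classes, with 1 point per aliquot and exact 95% binomial intervals. Middle and right, Nanopore CPM of the exon-skipping isoform and the exon-included isoform. The share fell from 58.2 to 64.1% in radial glia-like to 5.49 to 6.67% in mature GABAergic-like cells, and Cajal-Retzius-like cells lay at 80.0 and 86.5%.

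The aliquots themselves differed in this share. Over all cells the exon-included isoform held 39.1% (232 of 594, 35.1 to 43.1) of Myl6 UMIs in the 190 and 27.1% (762 of 2816, 25.4 to 28.7) in the 951 cell aliquot. The 190 cell aliquot was higher in all 7 classes tested, and in 1 of them, the immature glutamatergic-like cells, the intervals did not overlap. Every order of classes described above held within each aliquot, apart from radial glia-like and intermediate progenitor-like cells, which changed places.

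Single cells with at least 10 Myl6 UMIs were few, 26 of 1121. Both isoforms occurred side by side in 19 of them, and 7 held no exon-included isoform. All 9 radial glia-like cells among the 26 held both isoforms. Their exon-included share was 35.3% at the lowest, 63.6% at the median and 90.0% at the highest. Of 9 mature glutamatergic-like cells, 5 held both and 4 held no exon-included isoform, with 0, 8.33 and 58.3%. The ranges of the 2 classes overlapped, through 1 mature glutamatergic-like cell above 50%. With a lower threshold of 5 Myl6 UMIs, 30 of 37 radial glia-like cells held both isoforms, 5 lacked the exon-skipping and 2 the exon-included isoform. Of 110 mature glutamatergic-like cells at that threshold 57 held both. Cells of 1 class are not replicates, so these values carry no test.

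Myl12a and Myl12b, the regulatory light chains, went in opposite directions between progenitors and neurons. Myl12a was at 88.8 and 160 Illumina CPM in radial glia-like cells (16 and 136 UMIs), at 87.1 and 123 in cycling radial glia-like and at 72.3 and 108 in intermediate progenitor-like cells. In neurons it was at 24.0 and 26.2 CPM in mature glutamatergic-like and at 41.5 and 36.5 CPM in mature GABAergic-like cells. The 190 and 951 cell aliquots were far apart in radial glia-like cells and also in immature GABAergic-like cells, at 111 and 38.9 CPM, but each aliquot of the 3 progenitor classes lay above both mature classes.

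Myl12b had the opposite order. It was lowest in radial glia-like cells, at 111 and 107 CPM (20 and 91 UMIs), and next lowest in cycling ones, at 121 and 125 CPM. It was highest in mature glutamatergic-like cells, at 269 and 264 CPM (146 and 717 UMIs). Cajal-Retzius-like, immature glutamatergic-like, mature GABAergic-like and immature GABAergic-like cells followed in this order with means of 224 to 187 CPM, each overlapping the next over aliquots.

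Against radial glia-like cells, Myl12a was lower by a log2 fold change of -2.35 ± 0.31 (SE, adjusted p = 1.95e-07) in mature glutamatergic-like and of -1.95 ± 0.38 (adjusted p = 1.19e-04) in mature GABAergic-like cells. Myl12b was higher by 1.35 ± 0.21 (adjusted p = 1.34e-06) and by 0.64 ± 0.23 (adjusted p = 0.0299). These 2 were the members called in each comparison, of the 4 that passed the filter on low counts, where 33.9% and 31.8% of 8458 genes were called. Nanopore UMIs summed per gene, which come from the same cDNA, gave -2.55 and -2.10 for Myl12a and 1.48 and 0.75 for Myl12b, all 4 called. The GABAergic values were less firm. Myl12a lost its call there without the radial glia-like sum (-1.25, adjusted p = 0.0964) or the GABAergic sum (adjusted p = 0.0729) of the 951 cell aliquot. For Myl12b 3 of 4 left-out sums ended the call (adjusted p = 0.0776 and 0.157 without the radial glia-like sum of the 190 and of the 951 cell aliquot, 0.239 without the GABAergic sum of the 951 cell aliquot), as did the DESeq2 Wald test (adjusted p = 0.162) and no filter on low counts (adjusted p = 0.0970).

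The mature neuronal classes also differed in Myl12b. It was lower in mature GABAergic-like than in mature glutamatergic-like cells by -0.71 ± 0.21 (SE, adjusted p = 0.0219) on the log2 scale, 207 and 171 against 269 and 264 CPM, with no overlap. In this comparison 9.22% of genes were called (3.13% higher and 6.09% lower), 780 genes, or 1290 with the block. Leaving out any 1 of the 4 sums ended the call (adjusted p of 0.0841 without the GABAergic sum of the 190 and 0.297 without that of the 951 cell aliquot, 0.111 and 0.173 without the glutamatergic sums), while the fold changes stayed between -0.71 and -0.66. Mature exceeded immature glutamatergic-like cells by 0.59 ± 0.19, which did not pass (adjusted p = 0.0850) but did with the block (adjusted p = 2.18e-04, 932 in place of 302 genes called) and in the Nanopore sums (adjusted p = 0.0101). In the 2 comparisons of mature with immature cells 3.57% and 2.72% of genes were called (2.09% and 1.21% higher in the mature cells). None of the members was among them. With the block 492 in place of 230 genes were called between the GABAergic-like classes.

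As a share of the 2 genes' Illumina UMIs, Myl12b held 55.6% (20 of 36, exact interval 38.1 to 72.1) and 40.1% (91 of 227, 33.7 to 46.8) in radial glia-like cells. In mature glutamatergic-like cells it held 91.8% (86.4 to 95.6) and 91.0% (88.8 to 92.9), and in mature GABAergic-like cells 83.3% (62.6 to 95.3) and 82.4% (74.8 to 88.5). The intervals of radial glia-like and mature glutamatergic-like cells did not overlap in either aliquot. In intermediate progenitor-like cells Myl12b held 70.3% (53.0 to 84.1) and 57.6% (49.3 to 65.6). The immature GABAergic-like cells differed between aliquots, at 62.7% (48.1 to 75.9) and 82.7% (76.5 to 87.9). Each gene used 1 isoform almost throughout. For Myl12a ENSMUST00000148960 held 530 of 535 Nanopore UMIs (99.1%) and for Myl12b ENSMUST00000038446 held 1500 of 1522 (98.6%), the rest of Myl12b being an annotated retained intron.

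**Figure D3:**
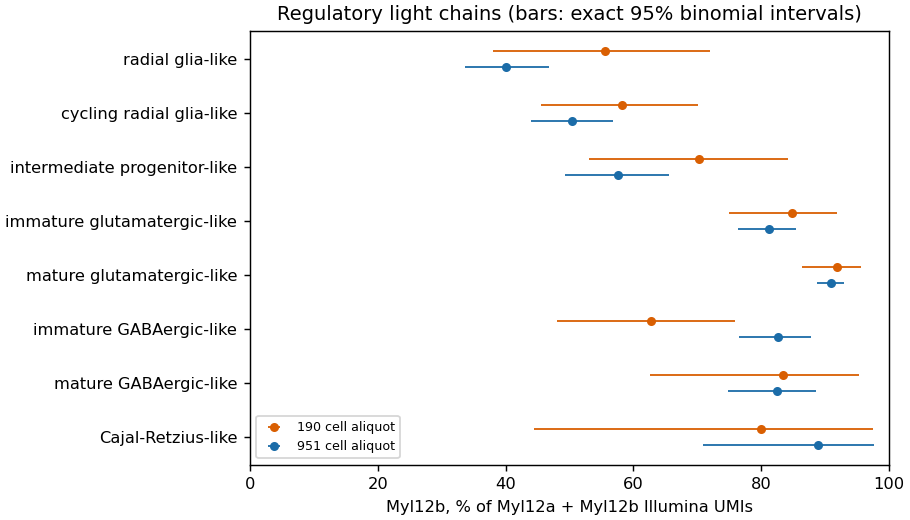
Share of Myl12b among the Illumina UMIs of Myl12a and Myl12b (x axis, percent) in 8 cell classes, with 1 point per aliquot and exact 95% binomial intervals. Mature glutamatergic-like cells lay at 91.0 and 91.8%, and radial glia-like cells at 40.1 and 55.6%.

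Among the heavy chains Myh10 was the main one in every class. It had 163 and 729 Illumina UMIs in the 2 aliquots (90.1 and 87.9 CPM) against 8 and 54 for Myh9 (4.42 and 6.51 CPM). Class means of Myh10 ran from 68.1 CPM in immature GABAergic-like and 68.2 in radial glia-like cells to 102 in mature glutamatergic-like cells, and every class overlapped its neighbour in the order over aliquots. Its share of the 2 heavy chains' UMIs was 89.3 to 100% in the 7 classes tested. In mature glutamatergic-like cells Myh10 was at 111 and 92.9 CPM against 61.0 and 75.4 in radial glia-like cells, a log2 fold change of 0.54 ± 0.24 (SE, adjusted p = 0.0838) that passed only with the block (0.50, adjusted p = 0.0444). It was called in none of the other 5 comparisons.

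Myh9 was too sparse for a test between classes. It was at 0 UMIs in 4 of the 7 tested classes of the 190 cell aliquot and at 3 to 14 UMIs per class in the 951 cell aliquot, and it did not pass the filter on low counts. The 5 cells set aside held 5 of its 54 UMIs in that aliquot (94.4 CPM). Long reads placed 138 of 166 Myh10 UMIs (83.1%) on ENSMUST00000102611, the full-length transcript of 7791 nucleotides and 41 exons. Another 15 (9.04%) fell on a processed transcript at the 3′ end of the gene, and 13 (7.83%) on a retained intron. ENSMUST00000016771 of Myh9, with 41 exons, held 22 of 29 Myh9 UMIs (75.9%). The remaining 7 fell on 3 retained introns, 5 of them on 1 (17.2%) and 1 each on the others (3.45% each). Usage of heavy chain isoforms was not tested at these depths.

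The chains Myl9, Myl6b and Myh14 were looked at by name. Myl9, a regulatory light chain best known from smooth muscle, was at 66.6 and 64.8 CPM in radial glia-like cells (12 and 55 UMIs) and at 6.22 and 5.02 CPM in cycling ones. In the mature neuronal classes it was at 0 to 2.95 CPM. It was lower than in radial glia-like cells by a log2 fold change of -4.45 ± 0.65 (SE, adjusted p = 2.89e-07) in mature glutamatergic-like and of -3.56 ± 0.67 (adjusted p = 1.44e-04) in cycling radial glia-like cells. The second call was lost without the radial glia-like sum of the 951 cell aliquot (adjusted p = 0.0557). In mature GABAergic-like cells 1 UMI remained against 67, a ratio of 47.4 with an exact 95% counting interval of 8.21 to 1898. Among the 8 classes radial glia-like cells had the highest mean of both Myl9 and Myl12a. The 5 cells set aside were higher, at 491 CPM for Myl9 (26 UMIs) and 660 CPM for Myl12a (35 UMIs).

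Mural markers, from the contractile cells of vessel walls, which also use Myl9, moved with these genes in part. Summed over 6 markers they reached 22.2 and 46.0 CPM in radial glia-like cells (4 and 39 UMIs, with 4 and 3 markers at 0, Tagln and Myh11 among them in both aliquots) against 9.22 and 1.84 CPM in mature glutamatergic-like and 31.1 and 1.59 CPM in mature GABAergic-like cells. In radial glia-like cells Pdgfrb had 3 and 19 UMIs, Acta2 had 1 and 7, and Rgs5 had 0 and 13. The 49 radial glia-like cells with no UMI of the 6 markers had Myl9 at 68.5 and 52.8 CPM and Myl12a at 68.5 and 164 CPM. They held 10 of 12 and 27 of 55 Myl9 UMIs, and 10 of 16 and 84 of 136 Myl12a UMIs. Whether mural RNA adds to these levels was not tested. Myl9 was found in 6 of 13 and 28 of 55 radial glia-like cells, with at most 5 UMIs in 1 cell. The 3 cells with the most Myl9 held 9 of 12 and 15 of 55 of its UMIs. Myl12a was found in 9 of 13 and 48 of 55 of these cells, with at most 4 and 17 UMIs in 1 cell. The 3 cells with the most Myl12a held 9 of 16 and 36 of 136 of its UMIs, so its radial glia-like level rests in part on few cells.

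Myl6b, the second essential light chain gene, lies directly upstream of Myl6 (chr10:128494157-128498685, minus strand). The 190 cell aliquot held 48 of its Illumina UMIs (26.5 CPM) and the 951 cell aliquot 51 (6.15 CPM), and the first was higher in all 7 classes tested. Nanopore UMIs differed likewise, 43 (43.3 CPM) and 50 (10.2 CPM). It was called in no class comparison. In mature glutamatergic-like against radial glia-like cells it passed with the block (1.51 ± 0.64, adjusted p = 0.0465), with no filter on low counts (adjusted p = 0.0364) and without the mature sum of the 951 cell aliquot (2.82, adjusted p = 0.01996). Myh14, the heavy chain of non-muscle myosin IIC, had 5 Illumina UMIs in all, all in the 951 cell aliquot.

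The genes that act on the motor were taken from 5 lists of 31 genes, of which 27 were tested. Against radial glia-like cells 3 were higher and 10 lower in mature glutamatergic-like cells (median log2 fold change -0.37), where 33.9% of all genes were called (17.1% higher and 16.8% lower). In mature GABAergic-like cells 3 were higher and 11 lower (median -0.52), where 31.8% of all genes were called (14.3% higher and 17.5% lower). Cycling radial glia-like cells had 3 lower and none higher (median 0.06), a share near the 11.8% of all genes called. In the other 3 comparisons edgeR called none of them. With the aliquot as a block the counts were 5 higher and 11 lower, 5 higher and 12 lower, and in cycling cells 3 higher and 4 lower. Rock1 (-0.62, adjusted p = 0.0299) then passed between mature and immature glutamatergic-like cells, and Rhoa (-0.76, adjusted p = 0.0333) between mature and immature GABAergic-like cells.

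The genes of the cytokinetic ring, which closes the furrow between daughter cells, were lower in both mature classes, 5 of 5 tested in each. Prc1, which bundles the spindle midzone, had 205 UMIs in radial glia-like cells, 14 in mature glutamatergic-like cells (log2 fold change -5.46 ± 0.36, adjusted p = 9.43e-17) and 1 in mature GABAergic-like cells. Kif23, a motor of the midzone, had 59, 3 and 0 UMIs, so that radial glia-like cells were at least 13.9-fold higher than mature GABAergic-like cells against a floor of 3 counts over the class (exact 95% limit with the counting error of both classes 10.96). Ect2, the exchange factor that activates RhoA at the furrow, had 25, 1 and 0 UMIs, at least 5.89-fold higher (exact limit 4.45). None of the 5 was called between the cycling and the radial glia-like class, although Cit passed there with the block (1.26, adjusted p = 0.0241). All 5 were nonetheless higher in cycling cells (median log2 fold change 0.76). With both aliquots pooled, ratios of radial glia-like to cycling cells ran from 0.41 (Cit) to 0.73 (Prc1). Their exact 95% intervals, which cover counting error only, all lay below 1.

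Rhoa and Rhoc, GTPases upstream of the kinases that phosphorylate the regulatory light chains, were lower in mature neurons, and Rhob, the third GTPase of the list, was not called without the block. Rhob, named after its values were seen, was at 22.2 and 8.25 CPM in radial glia-like, at 90.3 and 31.7 in mature glutamatergic-like and at 93.3 and 22.2 in mature GABAergic-like cells, higher in the neurons within each aliquot. With the block it passed in both (2.01 ± 0.40, adjusted p = 7.22e-06, and 1.54 ± 0.52, adjusted p = 0.0122) and in cycling cells (1.34 ± 0.47, adjusted p = 0.0297). Rhoa changed by -1.32 ± 0.23 (SE, adjusted p = 1.16e-05) in mature glutamatergic-like and by -1.50 ± 0.27 (adjusted p = 2.38e-05) in mature GABAergic-like cells. Without the radial glia-like sum of the 951 cell aliquot the glutamatergic change was -0.87 (adjusted p = 0.0585). Rhoc had 109 UMIs in radial glia-like cells, 14 in mature glutamatergic-like cells (-4.42 ± 0.46, adjusted p = 9.21e-11) and 0 in mature GABAergic-like cells, at least 25.7-fold lower (exact limit 20.5). It was also lower in cycling radial glia-like cells (-1.19 ± 0.37, adjusted p = 0.0287), a call that 3 of the 4 left-out sums ended (adjusted p = 0.759 without the radial glia-like sum of the 951 cell aliquot, 0.224 and 0.128 without the cycling sums). Of the exchange factors for RhoA, Arhgef1 was higher in mature glutamatergic-like cells (1.04 ± 0.33, adjusted p = 0.0103), Arhgef12 in mature GABAergic-like cells (1.56 ± 0.45, adjusted p = 0.00668) and Arhgef2 in both, while Arhgef11 was called in neither. With the block Arhgef1 passed in mature GABAergic-like cells too (0.97, adjusted p = 0.0187). The DESeq2 Wald test ended the calls of Arhgef1 (adjusted p = 0.170) and Arhgef12 (adjusted p = 0.0936).

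Of 7 light chain kinases tested, Dapk1 was higher in mature glutamatergic-like (1.28 ± 0.37, adjusted p = 0.00540) and mature GABAergic-like cells (1.28 ± 0.42, adjusted p = 0.0153). Rock2 was lower in mature GABAergic-like cells (-1.59 ± 0.56, adjusted p = 0.0258), but turned to 0.37 (adjusted p = 0.891) without the radial glia-like sum of the 951 cell aliquot. With the block Rock2 passed in mature glutamatergic-like cells too (-0.96, adjusted p = 0.0134), as did Dapk3 (0.64, adjusted p = 0.0203). None of the 4 phosphatase genes was called between classes, although Ppp1r12c passed with the block in mature GABAergic-like cells (-1.68, adjusted p = 0.0439). Of 5 tested genes for proteins that bind the motor or its actin, Shroom3 (-2.86 ± 0.70, adjusted p = 0.00113), Lima1 (-1.95 ± 0.32, adjusted p = 3.09e-06) and Actn1 (-1.70 ± 0.39, adjusted p = 5.41e-04) were lower in mature glutamatergic-like cells. The same 3 genes were lower in mature GABAergic-like cells (-3.70, -1.66 and -1.60). Shroom3 and Actn1 were lower in the cycling than in the radial glia-like class as well (-2.67, adjusted p = 0.0153, and -1.45, adjusted p = 0.0157). Calls for Arhgef1, Arhgef12, Dapk1, Shroom3, Lima1 and Actn1 were each lost without 1 or more sums of the radial glia-like cells in at least 1 of these comparisons. Without the mature GABAergic-like sum of the 951 cell aliquot Dapk1 was at 0.62 (adjusted p = 0.672) and Rock2 at -0.69 (adjusted p = 0.652), and the calls of Ect2, Shroom3, Arhgef12 and Actn1 in that comparison were lost too. The DESeq2 Wald test ended the calls of Dapk1 in both classes (adjusted p = 0.114 and 0.164), of Rock2 (adjusted p = 0.313), of Actn1 in mature GABAergic-like cells (adjusted p = 0.0966) and of Rhoc (adjusted p = 0.533), Shroom3 (adjusted p = 0.231) and Actn1 (adjusted p = 0.244) in cycling cells.

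The light chains were higher and Myh10 lower in the long reads. Between Nanopore isoform UMIs and Illumina UMIs of the same cells, 50.5% of 9855 genes were called, 20.2% higher and 30.3% lower in Nanopore. Myl6 was higher by a log2 fold change of 0.59 ± 0.08 (SE, adjusted p = 0.00248), Myl12b by 0.59 ± 0.09 (adjusted p = 0.00352) and Myl12a by 0.60 ± 0.17 (adjusted p = 0.0263). Myl12a lost its call without the Nanopore library of the 951 cell aliquot (0.33, adjusted p = 0.223) and with the DESeq2 Wald test (adjusted p = 0.0577). With the aliquot as a block Myl6b (0.85, adjusted p = 2.71e-04) and Myl9 (0.54, adjusted p = 0.0126) passed between platforms too, which they did not without it (adjusted p = 0.520 and 0.214). Myh10 was lower by -1.54 ± 0.14 (adjusted p = 6.03e-04), and Myh9 did not pass (-0.11 ± 0.33, adjusted p = 0.815). Nanopore UMIs assigned to a known isoform numbered 594 and 2816 against 777 and 3491 Illumina UMIs for Myl6 (76.4 and 80.7%). For Myh10 they numbered 25 and 141 against 163 and 729 (15.3 and 19.3%). Molecules read but not assigned to an isoform are missing from these counts. Over all genes the figures were 54.9 and 58.9%.

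The longest isoform seen was 1668, 1937 and 2143 nucleotides for Myl6, Myl12a and Myl12b, and 7433 and 7791 nucleotides for Myh9 and Myh10. For Myl6 that isoform held 15 UMIs (0.44%), and the exon-skipping and exon-included isoforms were 665 and 691 nucleotides long. Genes of up to 1000 nucleotides had a median log2 fold change of 0.51 (552 genes). Genes of over 1000 to 2000 nucleotides had a median log2 fold change of 0.53 (1789 genes), those of over 2000 to 3000 nucleotides one of 0.27 (2129 genes), and those over 6000 nucleotides one of -1.43 (1306 genes). Myh9 rested on 29 Nanopore UMIs against 62 Illumina UMIs. Of the lists' other genes, 28 were tested, of which 15 were lower and 1 higher in Nanopore. Ppp1r12a, the subunit that targets the myosin phosphatase to the motor, had 0 and 2 Nanopore UMIs against 124 and 587 Illumina UMIs.

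**Figure D4:**
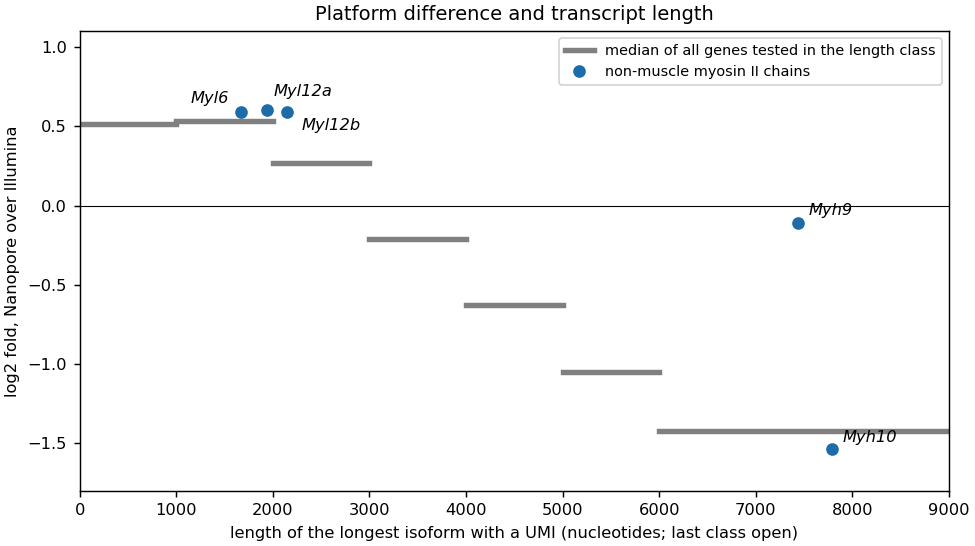
Log2 fold change of Nanopore over Illumina (y axis) against the length of the longest isoform seen (x axis, nucleotides) for the 5 members (points). Grey lines are the medians of all genes tested in 7 length classes, the last of them open-ended. They stand at 0.51 in the shortest class and fall from 0.53 in the next to -1.43 in the last. Myh10 lay at -1.54, and Myh9 at -0.11.

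Genes with a pattern like that of each member were sought among 3014 genes over 14 sums, the 7 tested classes in 2 aliquots. The sums share libraries and differ in depth, so the values are descriptions. Myl12b was most like Ppp3ca (r = 0.95), Uchl1 (r = 0.93) and Slc25a4 (r = 0.93), and Myl12a most like Emg1 (r = 0.94) and Rpsa (r = 0.92). Myl6 (Cfap36, Taf13 and Pdia3, r = 0.85 to 0.74) and Myh10 (Tnrc6c, Commd3 and Epn1, r = 0.86 to 0.83) varied less between classes, and Myh9 was too sparse. Between members the strongest relation was that of Myl12a and Myl12b (r = -0.83). The share of the exon-included isoform was set against the major isoform share of 298 other genes. It was most like Cdc42 (r = 0.87, share 36.7 to 95.5%), Tecr (r = 0.87, 34.0 to 84.6%), Ewsr1 (r = 0.84, up to 97.2%) and Pkm (r = 0.80, 11.9 to 98.6%), and ran against Nnat (r = -0.85, 29.6 to 58.0%).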

How the data were processed

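Polyadenylated RNA of single cells was tagged with unique molecular identifiers (UMIs). The authors made the deposited UMI counts, per gene with Cell Ranger 2.0 for Illumina and per Gencode isoform for Nanopore, where only UMIs assigned to a known isoform are counted. Groups came from the library titles. The 5 members and all gene lists were chosen with earlier results of these data known.

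Cells with 1400 genes were clustered (Seurat 5.3.0, R 4.3.3, 2000 variable genes, 11 canonical correlation dimensions, resolution 0.8) and classes were rebuilt from markers. Scrublet in scanpy 1.11.5 called 2 of 186 and 3 of 935 cells doublets, which stayed in. UMIs were summed per aliquot and class and tested with edgeR 4.0.16 (quasi-likelihood test, Benjamini-Hochberg adjustment over all genes, threshold 0.05) and, for isoforms, its test of differential usage. Aliquot pairs deviated together (correlation 0.597 between platforms, and a median of 0.220, from 0.141 to 0.339, between classes), the shared aliquot being given by the titles. Named genes were the members, the other chains and, per list and comparison, up to 3 called genes with the largest change. Statistics were tested on simulated data. Alternatives were DESeq2 1.42.0, other size factors, no filter, the block, left-out sums, doublets, Nanopore sums and, chosen after seeing the data, shared barcodes, the 5 cells and 1 cluster. Sequences came from Gencode vM21 transcripts (GRCm38), which held 31969 of 31986 isoforms. The paper's methods name an earlier Gencode release. Some items are not reported here.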

Additional observations from a re-analysis of the deposited data

How the results depend on the processing

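Directions of the 5 members mostly stood, but several of their calls between classes did not. At the gene level only the calls of Myl12a and Myl12b in mature glutamatergic-like against radial glia-like cells held without any single sum. Counts of called genes moved with the tool. The DESeq2 Wald test called 3071 genes between platforms, and 1659 and 1543 in mature glutamatergic-like and mature GABAergic-like against radial glia-like cells. It called 315 in the cycling against the radial glia-like class and 324 between the mature classes. Between mature and immature glutamatergic-like and GABAergic-like cells it called 76 and 90. With the aliquot as a replicate block edgeR called 1642 genes in cycling cells, 932 and 492 between mature and immature cells and 1290 between the mature classes, and by isoform usage 38, 41, 12 and 19. With no filter on low counts usage gave 209 genes for mature glutamatergic-like against radial glia-like cells, and 2 and 0 between mature and immature cells. Nanopore sums gave 153 genes between mature and immature GABAergic-like cells.

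Leaving out 1 sum at a time gave 3697 to 5298 called genes between platforms. It gave 1508 to 2801 for mature glutamatergic-like against radial glia-like cells, 1175 to 2612 for mature GABAergic-like against radial glia-like cells, 314 to 921 for cycling against other radial glia-like cells, 94 to 210 for mature against immature glutamatergic-like cells, 90 to 217 for mature against immature GABAergic-like cells, 304 to 634 for mature GABAergic-like against mature glutamatergic-like cells. For isoform usage it gave, in the same order, 44 to 122, 32 to 102, 1 to 27, 1 to 6, 0 to 6, 0 to 11. Where it left a class with 1 sum, that sum was assumed to vary like the other classes.

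The sign turned when single libraries or sums were left out for some values, of which only that of Rock2 had passed. Between platforms Myl6b ranged from -0.25 to 1.92 and Myl9 from -0.059 to 0.92. Between mature and immature glutamatergic-like cells Myl6b ranged from -0.12 to 2.12 and Myh10 from -0.023 to 0.20. Between the mature classes Myl6 ranged from -0.24 to 0.0052 and Myl6b from -1.79 to 0.54, reaching 0.44 without the glutamatergic sum of the 190 cell aliquot. In mature GABAergic-like against radial glia-like cells Myl6b ranged from -0.25 to 2.41 and Rock2 from -2.01 to 0.37. In the cycling against the radial glia-like class Myl6b ranged from -2.43 to 0.56 and Myl12a from -0.64 to 0.44. Between mature and immature GABAergic-like cells Myl9 ranged from -2.75 to 3.04, Myl6 from -0.15 to 0.41 and Myl6b from -0.35 to 2.15. Nanopore sums turned Myh10 to 0.23 and Myl9 to 0.89 between the mature classes. Without barcodes found in both aliquots the mean level was 469.7 CPM for Myl6 and 33.7 CPM for Myl12a in mature GABAergic-like cells, and for Myl12b 115.6 CPM in radial glia-like, 127.4 in cycling radial glia-like and 182.7 in immature GABAergic-like cells. Without doublets Myl12b was at 94.97 CPM in radial glia-like cells. Main isoform shares moved to 100% (Myl12a, cycling cells, rare isoforms left out) and to 93.0% and 98.6% (Myl12b, radial glia-like cells, without doublets and without shared barcodes). In all cases the cause was not tested. The block changed no call of the 5 members, Myl9 or Myl6b other than those given with the results.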
